A study of Homo sapiens with 4 samples.

Results

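A set of 8 short genes that carry an Ensembl identifier but no symbol was examined in Raji, a line of human B cells established from a Burkitt lymphoma and positive for Epstein-Barr virus. They were chosen from 5324 unnamed genes of at most 450 bases, out of 51714 identifiers counted. The first 5 were picked because they were the most abundant, and the other 3 because they were raised in R1810A cells. The R1810A libraries (2) came from cells that express an HA-tagged RPB1, which is the largest subunit of the polymerase that makes messenger RNA (RNA polymerase II), with alanine in place of arginine at a methylated residue of the C-terminal domain. The WT libraries (2) came from cells that express the HA-tagged wild-type RPB1. Both recombinant subunits resist α-amanitin, and both kinds of cells were transfected, selected with G418 and then held in α-amanitin for 10 days, so that the resistant subunit took over from the endogenous one. Each line was a polyclonal batch of cells, and total RNA was depleted of its ribosomal part before sequencing. Whether the replicates were grown separately is not said in the labels, so a p-value here reflects the spread between libraries and that spread may be technical.

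Short noncoding RNAs form the machinery of RNA processing. Small nuclear RNAs build the spliceosome, small nucleolar RNAs guide the modification of ribosomal RNA, and small Cajal body RNAs guide the modification of small nuclear RNAs. RNase P and RNase MRP, which process transfer RNA and ribosomal RNA precursors, each hold a catalytic RNA. RNA polymerase II makes most spliceosomal small nuclear RNAs and the host transcripts of many small nucleolar RNAs, whereas RNA polymerase III makes the RNAs of RNase P and RNase MRP.

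None of the 8 identifiers matched the table of current names or GENCODE v29, so no name or function is assigned to them here and their noncoding nature rests on the choice of the list. The only other clue was the deposited gene length. Among 4757 genes of small noncoding types that were matched by identifier, the deposited length equalled the GENCODE v29 length in 4278 (89.9%). ENSG00000199916, with 264 bases, had the length of 10 small noncoding genes in GENCODE v29, and 7 of them had no row matched by identifier. RMRP, the RNA of RNase MRP, was among these 7. ENSG00000252678, with 333 bases, had the length of 5 such genes, and the 1 without a matched row was RPPH1, the RNA of RNase P. ENSG00000238881, with 420 bases, had the length of 1, SCARNA2, a small Cajal body RNA. An equal length does not identify a gene, and these identities are uncertain.

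The sequences of the 8 genes were not used here, since no table given holds them under these identifiers. The RNAs of RNase MRP and RNase P are shown because they have the lengths of the top 2 of the 8 genes by count. The sequences and positions are those of GENCODE v29 on GRCh38. RMRP lies at chr9:35657754-35658017 and RPPH1 at chr14:20343075-20343407, both on the minus strand, with no letters marked. The first 300 of the 333 bases of RPPH1 are given.
RMRP: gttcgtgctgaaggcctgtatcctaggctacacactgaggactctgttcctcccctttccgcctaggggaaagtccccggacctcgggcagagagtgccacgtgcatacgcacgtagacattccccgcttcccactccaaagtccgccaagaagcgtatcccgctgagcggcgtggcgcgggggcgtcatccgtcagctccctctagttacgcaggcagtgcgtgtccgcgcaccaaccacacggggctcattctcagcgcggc
RPPH1: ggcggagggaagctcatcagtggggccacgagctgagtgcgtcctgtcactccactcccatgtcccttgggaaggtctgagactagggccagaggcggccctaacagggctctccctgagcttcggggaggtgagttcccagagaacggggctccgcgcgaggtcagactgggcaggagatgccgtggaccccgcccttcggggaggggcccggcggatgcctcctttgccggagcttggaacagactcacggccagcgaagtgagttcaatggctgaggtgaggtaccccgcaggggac

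ENSG00000208506, a raised gene of 127 bases, had the length of 28 small noncoding genes, of which 8 had no matched row. Of these, 3 carry the symbol of a structured small RNA. They are RNU4ATAC, a small nuclear RNA of the minor spliceosome (chr2:121530881-121531007, plus strand), SCARNA15, a small Cajal body RNA (chr15:82755945-82756071, plus strand), and SNORA78, a small nucleolar RNA (chr16:1965184-1965310, plus strand). They are printed to show how unlike the RNAs of this 1 length are. Capitals mark ATTTTTG, the letters of an Sm protein binding site, in RNU4ATAC and the letters ACA 3 bases before the 3′ end, a hallmark of the H/ACA class, in SCARNA15 and SNORA78.
RNU4ATAC: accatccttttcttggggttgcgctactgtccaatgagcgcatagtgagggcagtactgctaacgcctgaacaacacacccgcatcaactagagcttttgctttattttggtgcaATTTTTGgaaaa
SCARNA15: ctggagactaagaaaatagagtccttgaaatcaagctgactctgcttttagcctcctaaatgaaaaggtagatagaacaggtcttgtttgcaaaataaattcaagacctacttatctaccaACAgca
SNORA78: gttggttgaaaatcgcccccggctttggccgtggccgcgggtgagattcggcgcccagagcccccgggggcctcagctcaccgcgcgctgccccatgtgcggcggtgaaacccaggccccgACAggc
Only the strand of the transcript was searched, and the motifs do not overlap. Of 48 GENCODE v29 transcripts of this length, 10 (20.8%) had ACA at this position and 1 (2.08%) held ATTTTTG. The remaining genes were compared in the same way. Of the genes without a matched row, ENSG00000252666 (95 bases) shared its length with 18, ENSG00000207985 (93 bases) with 14, ENSG00000239935 (203 bases) with 3 and ENSG00000206653 (65 bases) with 32. MicroRNA genes made up 10 of the 18, 12 of the 14, 0 of the 3 and all 32 of the 32. No small nuclear, nucleolar or Cajal body RNA or ribozyme with a symbol was among the genes of these lengths without a matched row.

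Summed gene counts were between 2081636 and 2991959 per library, with 16414 to 17824 genes detected. POLR2A, which codes for RPB1, had 945 and 1036 CPM (counts scaled to library size, with TMM) in R1810A, against 869 and 848 CPM in WT. Reads from the vector and from the endogenous gene cannot be told apart in these counts. The B cell gene CD79A, which codes for a chain of the B cell receptor complex, had 1258 and 1306 CPM in R1810A, against 1483 and 1271 CPM in WT. The T cell gene CD3E had 0 and 0 reads in R1810A and 0 and 2 reads in WT.

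**Figure D1:**
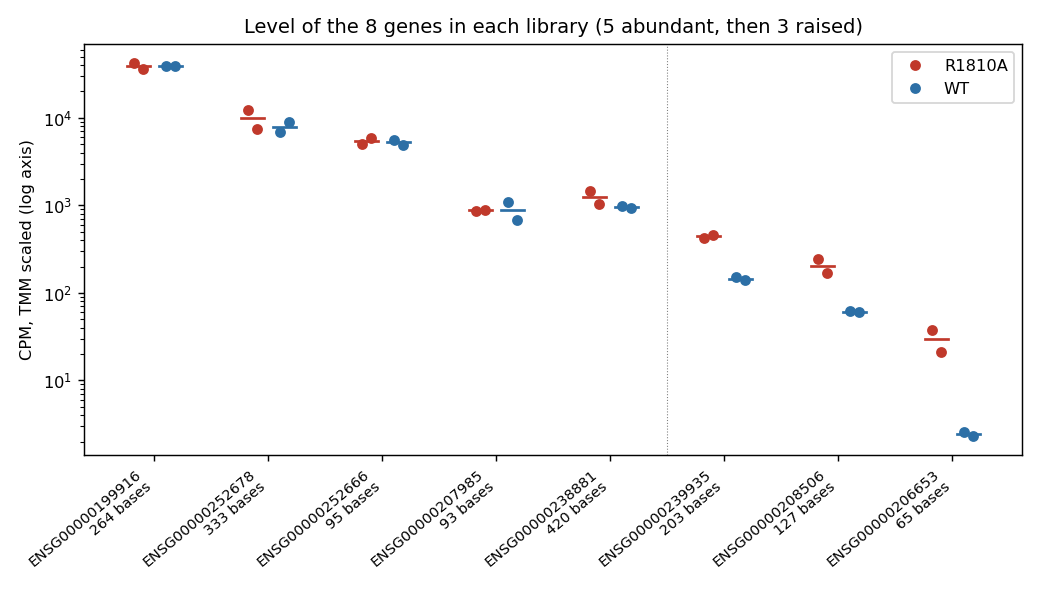
Level of each of the 8 genes, as CPM with TMM scaling on a log axis, in the R1810A libraries (red, 2) and the WT libraries (blue, 2). Points are libraries and bars are group means. The groups overlap at 4 of the 5 abundant genes, and the 3 raised genes lie higher in both R1810A libraries, from 11.9-fold at ENSG00000206653 to 3.03-fold at ENSG00000239935.

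The abundant genes held a large part of all counted reads. They took 6.18% (interval 6.15 to 6.21%) and 5.15% (5.12 to 5.18%) of counts in R1810A, and 5.32% (5.29 to 5.35%) and 5.55% (5.52 to 5.57%) in WT. The groups overlapped, with means of 5.67 ± 0.728% in R1810A and 5.43 ± 0.159% in WT (SD, n = 2), and the difference of 0.232 percentage points was smaller than the SD in R1810A. A two-sided exact permutation test gave p = 1.0, where 2 against 2 libraries allow none below 0.33. The difference was -0.282 without R1810A replicate 1 and -0.119 as a share of the deposited total reads. In bulk RNA a lower share of cells that express a gene and less RNA per cell cannot be told apart.

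ENSG00000199916 was the most abundant gene of all in both CPM and RPKM (reads scaled to gene length and to the deposited total reads). It had 89569 and 75027 reads in R1810A, against 90188 and 119007 reads in WT. In CPM it stood at 42618 and 35813 in R1810A and at 39211 and 39307 in WT, so that 1 R1810A library lay above both WT libraries and 1 below. The WT libraries differed 1.00-fold and the R1810A libraries 1.19-fold. The log2 fold change was 0.00 (-0.0016, SE 0.16, edgeR adjusted p = 0.997), with an interval of -0.35 to 0.34. Alone it held 4.23% and 3.60% of all counts in R1810A, against 3.88% and 3.98% in WT.

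ENSG00000252678 varied most between the R1810A libraries among the abundant genes. It had 25803 and 15741 reads in R1810A, against 15864 and 27144 reads in WT, or 12277 and 7514 CPM in R1810A and 6897 and 8965 CPM in WT. R1810A replicate 1 was the highest of the 4 libraries, and R1810A replicate 2 lay between the WT libraries. The log2 fold change was 0.32 (SE 0.21, interval -0.15 to 0.79, edgeR adjusted p = 0.731). Without R1810A replicate 2 it was 0.63 and passed the threshold (adjusted p = 0.016), while without R1810A replicate 1 it was -0.080. Leaving out 1 library therefore changes both the call and the direction.

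ENSG00000252666 had 10594 and 12408 reads in R1810A, against 12926 and 14893 reads in WT. These are 5041 and 5923 CPM in R1810A and 5620 and 4919 CPM in WT, with overlapping groups. The log2 fold change was 0.06 (SE 0.14, interval -0.24 to 0.36, edgeR adjusted p = 0.941). ENSG00000207985 had 1797 and 1874 reads in R1810A, against 2499 and 2078 reads in WT, or 855 and 895 CPM in R1810A and 1086 and 686 CPM in WT. Both R1810A libraries lay between the WT libraries, which differed 1.58-fold. Its log2 fold change was -0.02 (SE 0.18, interval -0.40 to 0.37, edgeR adjusted p = 0.985).

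ENSG00000238881 was the only abundant gene with both R1810A libraries above both WT libraries. It had 3025 and 2168 reads in R1810A, against 2277 and 2805 reads in WT, or 1439 and 1035 CPM in R1810A and 990.0 and 926 CPM in WT. The log2 fold change was 0.37 (SE 0.15, interval 0.04 to 0.69), which did not pass (edgeR adjusted p = 0.563, unadjusted p = 0.030). Without R1810A replicate 1 it was 0.11. Among all 10674 genes tested, 19.8% had both R1810A libraries above both WT libraries.

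None of the 5 abundant genes passed an adjusted p of 0.05 with edgeR, DESeq2 or limma-voom, and 1 had an unadjusted p under 0.05 with edgeR, a limit met by 4.94% of all genes tested in this direction. Among all genes tested 0.356% passed with edgeR in either direction. A p that misses the threshold does not show equal levels.

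**Figure D2:**
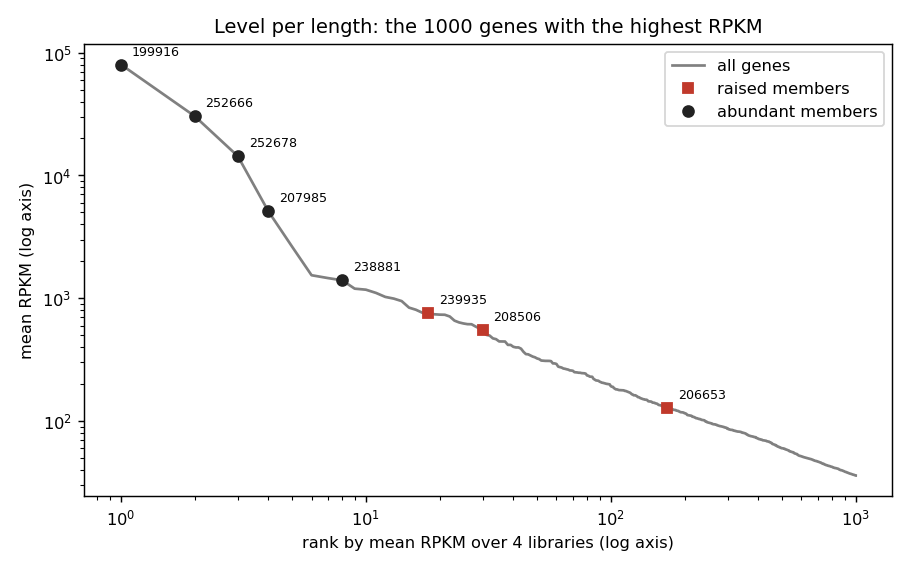
Mean RPKM over the 4 libraries against rank, both on log axes, for the 1000 genes with the highest RPKM (grey line). Black circles are the 5 abundant genes and red squares the 3 raised genes, marked by the last digits of the identifier. The abundant genes hold ranks 1, 2, 3, 4 and 8.

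Compared per length, the order of the levels changed. In deposited RPKM, ENSG00000199916 had 76644 ± 11042 in R1810A and 83384 ± 19.4 in WT (SD, n = 2 here and below). ENSG00000252666 followed with 29697 ± 2742 in R1810A and 31104 ± 2971 in WT, and ENSG00000252678 with 15369 ± 5542 in R1810A and 13353 ± 2443 in WT. The gaps between these 3 levels exceeded the SDs. ENSG00000207985 stood at 4845 ± 50.3 RPKM in R1810A and 5346 ± 1714 in WT, and ENSG00000238881 at 1522 ± 384 in R1810A and 1279 ± 61.9 in WT. These 5 genes held ranks 1, 2, 3, 4 and 8 among all genes by mean RPKM. The named genes ranked between them were SNORA73B at rank 5, an H/ACA small nucleolar RNA, and EEF2, a translation elongation factor gene, at rank 6. IGHM, the immunoglobulin mu heavy chain gene, was at rank 7. The gene matched as 7SK, a small nuclear RNA that regulates transcription elongation, had 59.0 RPKM on average in R1810A and 59.4 RPKM in WT (rank 513). RNY3, RNY4 and VTRNA1-1, genes of Y RNAs and a vault RNA, had 0 reads in every library. RNY1 had 0 and 1 reads in R1810A and 0 and 0 reads in WT. What was done with multiply matching reads is not given, and reads shared with near-identical copies may be missing or split. Low or absent counts of these named RNAs therefore do not show that the RNAs were rare or absent in the cells.

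The 3 raised genes were less abundant, and their difference between groups is what they were picked for, so it is given with no test. ENSG00000239935 had 888 and 966 reads in R1810A, against 351 and 421 reads in WT. In CPM these are 423 and 461 in R1810A and 153 and 139 in WT, a 3.03-fold difference (log2 fold change 1.60, SE 0.11). The R1810A libraries lay within 1.09-fold of each other and the WT libraries within 1.10-fold. Its log2 fold change was between 1.53 and 1.67 with a library left out. Here R1810A replicate 2 was the higher of the pair, unlike at the other raised genes.

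ENSG00000208506 had 506 and 350 reads in R1810A, against 143 and 182 reads in WT, or 241 and 167 CPM in R1810A and 62.2 and 60.1 CPM in WT. The fold was 3.34 (log2 fold change 1.74, SE 0.17), and 1.45 on the log2 scale without R1810A replicate 1. R1810A replicate 1 was 1.44-fold above replicate 2, while the WT libraries differed 1.03-fold.

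ENSG00000206653, the shortest at 65 bases, had the fewest reads and the largest fold. It had 80 and 44 reads in R1810A (exact Poisson intervals 63.4 to 99.6 and 32.0 to 59.1), against 6 and 7 reads in WT (2.20 to 13.1 and 2.81 to 14.4). The intervals cover counting error only. In WT the gene lay below the filter on low counts, so it was tested through its R1810A reads alone. In CPM it stood at 38.1 and 21.0 in R1810A and at 2.61 and 2.31 in WT, an 11.9-fold difference (log2 fold change 3.57, SE 0.41). It came to 3.08 when R1810A replicate 1 was left out and to 3.93 when replicate 2 was. R1810A replicate 1 was 1.81-fold above replicate 2.

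Together the 3 raised genes made up 0.0696% and 0.0653% of counts in R1810A, against 0.0215% and 0.0204% in WT, with means of 0.0675 ± 0.0030% in R1810A and 0.0209 ± 0.00078% in WT (SD, n = 2). In RPKM the order was ENSG00000239935 with 1121 ± 45.1 in R1810A and 403 ± 27.1 in WT, then ENSG00000208506 with 830 ± 229 in R1810A and 269.96 ± 6.83 in WT. ENSG00000206653 came last with 235 ± 100.7 in R1810A and 21.2 ± 1.84 in WT. In R1810A the gap between ENSG00000239935 and ENSG00000208506 was little larger than the SD of 229, as was that between ENSG00000238881 and ENSG00000239935 beside an SD of 384.

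**Figure D3:**
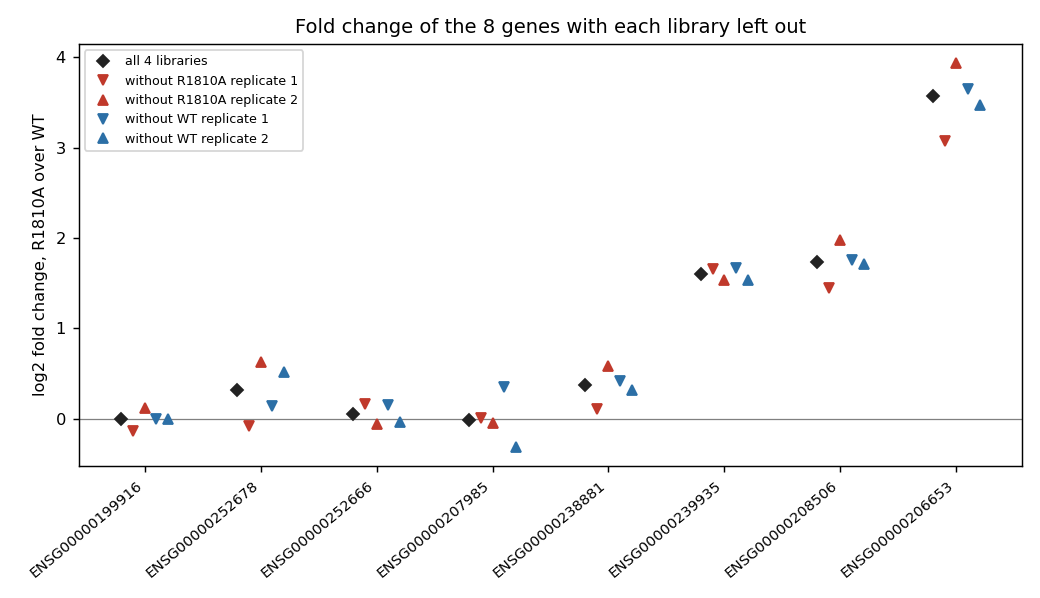
Log2 fold change (R1810A over WT) of each gene from all 4 libraries (black diamonds) and with 1 library left out (red without an R1810A library, blue without a WT library). The raised genes stay above 1.4 in every case. ENSG00000252678 ranges from -0.080 to 0.63 and ENSG00000207985 from -0.31 to 0.35, and both lie on either side of 0.

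At the edge of the choice by abundance, ENSG00000207985 averaged 881 CPM over the 4 libraries, and the next short unnamed gene, ENSG00000188987 with 367 bases, averaged 673 CPM. After it came ENSG00000124693 (466 CPM), ENSG00000182572 (353 CPM), ENSG00000200182 (339.7 CPM) and ENSG00000112727 (302 CPM). The type of these next genes is not known, and coding genes may be among them. Other than ENSG00000200182 (log2 fold change 0.06), these lay lower in both R1810A libraries than in both WT libraries, with log2 fold changes from -0.46 to -0.35, and none passed (edgeR adjusted p from 0.220 to 0.463). Among all genes tested, 19.5% had both R1810A libraries below both WT libraries. At the edge of the choice by difference, 4 of the 30 other short unnamed genes tested were higher in R1810A at an edgeR adjusted p under 0.05. Among all genes tested, 0.347% were. ENSG00000207487 (126 bases) had 47 and 18 reads in R1810A, against 2 and 5 reads in WT. In WT it lay below the filter on low counts, so it was tested through its R1810A reads alone. ENSG00000209804 (134 bases) had 115 and 47 reads in R1810A, against 13 and 27 reads in WT. ENSG00000221462 (135 bases) had 108 and 51 reads in R1810A, against 15 and 31 reads in WT, and ENSG00000207152 (137 bases) 323 and 180 reads in R1810A, against 122 and 127 reads in WT. In all 4, R1810A replicate 1 was above replicate 2 in CPM, as it was in 49.1% of all genes tested. For genes that narrowly missed the threshold, only short unnamed genes with a positive log2 fold change were considered. Those with the smallest adjusted p were ENSG00000206942 (log2 fold change 1.28, edgeR adjusted p = 0.058), ENSG00000199382 (3.20, adjusted p = 0.065) and ENSG00000206823 (1.21, adjusted p = 0.074). ENSG00000199382 was far higher in 1 R1810A library than in the other, with 389 and 75 reads in R1810A, against 24 and 40 reads in WT.

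**Figure D4:**
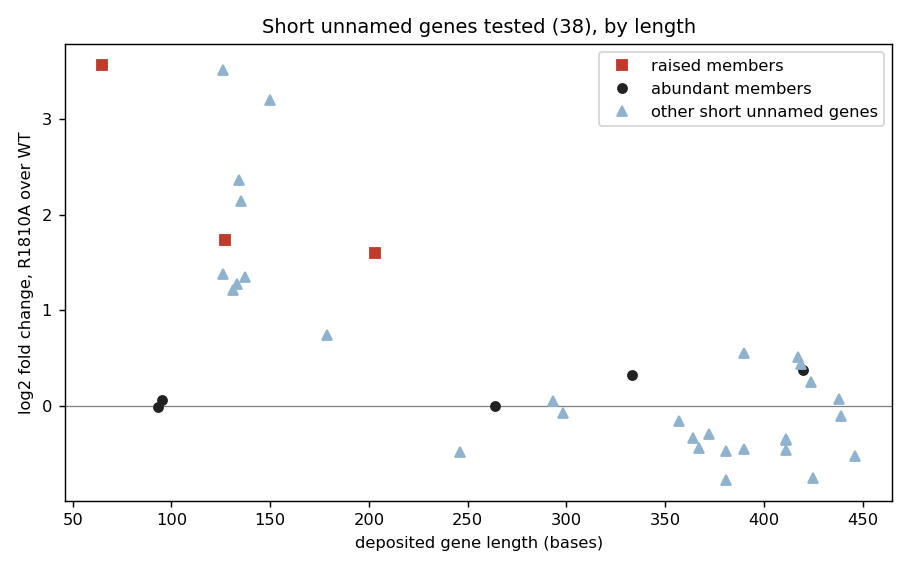
Log2 fold change (R1810A over WT) against deposited gene length for the 38 short unnamed genes tested. Red squares are the raised genes, black circles the abundant genes and blue triangles the others. All 10 genes of over 100 and up to 200 bases lie above 0, while the 20 genes of over 330 bases have a median of -0.32.

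Of the 5324 short unnamed genes, 387 had a read in any library, and 38 passed the filter on low counts, all 8 described above among them. Of these 38, 7 were higher in R1810A at an adjusted p under 0.05, including the 3 picked for it, beside 0.347% of all genes tested. Nothing is read from this count, since the choice used the same contrast. The count was 1 without WT replicate 2, 13 without R1810A replicate 2, 3 with limma-voom and 4 with upper-quartile scaling. No gene of the 38 was called lower with edgeR, DESeq2 or limma-voom, where 0.00937% of all genes tested were with edgeR, but 3 were called lower without WT replicate 1. At an unadjusted p under 0.05, 8 were lower, beside 3.06% of all genes tested. The median log2 fold change was 0.06, against 0.00 over all genes (-0.0046). It was 0.37 without WT replicate 1, 0.20 without WT replicate 2 and -0.053 without R1810A replicate 1. Scaling by the deposited total reads moved it to -0.062 and the median over all genes to -0.13. The values differed with length. The type of these unnamed genes is not known and coding genes may be among them, so length and gene type cannot be told apart. The 10 genes of over 100 and up to 200 bases had positive log2 fold changes from 0.74 to 3.51 with a median of 1.56, and 5 were called. Leaving out R1810A replicate 1 gave a median of 1.29 and leaving out R1810A replicate 2 one of 2.50, over 10 and 13 tested genes that were all positive. The 10 include ENSG00000208506, picked for its rise, and the other 9 had a median of 1.37. With no filter on low counts, 54 of 81 genes of these lengths were positive, with a median of 1.33. The median over all genes in that fit was 0.00016. Only 10 of the 81 passed the filter, and the values of the others rest on few reads. Among all 10674 genes tested with the filter, 49.4% had a positive log2 fold change. The 20 genes of over 330 bases had a median of -0.32, with 13 values below 0 and none called by edgeR, where 1 was higher and 8 were lower at an unadjusted p under 0.05. With no filter the direction of that median turned, to 0.025 over 114 genes, of which 57 were positive. ENSG00000252666 and ENSG00000207985, of at most 100 bases, had log2 fold changes of 0.06 and -0.02. A gene that passed the filter through its R1810A reads alone had to differ, so these counts describe the tested genes only.

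For comparison, named small RNAs in the same fit had median log2 fold changes of 1.82 over 40 tested H/ACA small nucleolar RNAs, 1.72 over 25 C/D small nucleolar RNAs and 2.69 over 10 small nuclear RNAs. The median was 0.93 over 12 small Cajal body RNAs. Of the genes with a read, those tested were 40 of 88 in the H/ACA class and 25 of 83 in the C/D class. They were 10 of 154 among small nuclear RNAs and 12 of 18 among small Cajal body RNAs. A gene that passed the filter through its R1810A reads alone had to be higher there. These medians and ranges therefore describe the tested genes only. The values ranged from 0.49 to 3.37 in the H/ACA class, from -0.17 to 3.21 in the C/D class, from 0.58 to 4.38 among the small nuclear RNAs and from -0.0028 to 3.51 among the small Cajal body RNAs. Beside them stand the 1.60, 1.74 and 3.57 for which the raised genes were picked. The 5 abundant genes, at -0.02 to 0.37, lay below the lowest H/ACA and small nuclear RNA values and inside the C/D range. All but ENSG00000207985 also lay inside the small Cajal body range. They were at the low end of both ranges, below each class median. Of the tested genes, 24 of 25 in the C/D class and 11 of 12 small Cajal body RNAs were positive.

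The genes whose pattern over the 4 libraries was nearest to each of the 8 were taken by Euclidean distance between log2 CPM values centred on each gene's mean, among 9430 tested genes with a mean count of at least 20. ENSG00000208506 was nearest to SNORA52, at a distance of 0.036, which had 230 and 158 reads in R1810A, against 63 and 79 reads in WT. The second was SNORA21, also an H/ACA small nucleolar RNA, at 0.24. ENSG00000206653 was nearest to SCARNA8, a small Cajal body RNA, at 0.27 and to RNU5E-1, a U5 small nuclear RNA gene, at 0.40. ENSG00000239935 was nearest to the small nucleolar RNAs SNORD12 and SNORA80A, both at 0.31. Of the abundant genes, ENSG00000199916 was nearest to ENSG00000232952 at 0.0090 and then to CORO1B at 0.019. TANK was at 0.016 from ENSG00000252666, RAB28 at 0.078 from ENSG00000252678, AUH at 0.049 from ENSG00000207985 and ZNF765 at 0.056 from ENSG00000238881. With 4 libraries, these distances describe the pattern and carry no test. The raised genes were picked by this contrast, so their nearest genes had to be raised too. Of the 37 genes called higher, 28 were named genes of at most 450 bases. The neighbours therefore do not identify the raised genes.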

How the data were processed

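RNA from 4 libraries of Raji cells, 2 R1810A and 2 WT, was grouped by the labels. Bowtie was the aligner and hg19 the build, per the submitters' processing notes. How reads were counted, on which annotation release and strand, and what was done with multiply matching reads is not given in the sources used here. Reads shared with near-identical copies may be missing or split. The deposited counts are whole numbers of reads for each gene and were not normalised, per the file headers. The RPKM was made by the authors from the count, the gene length and a deposited total read number, and equalled that formula within a relative tolerance of 0.0001. What the total counts is not stated. RPKM served only to compare levels between genes.

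R1810A was compared with WT by the quasi-likelihood test of edgeR 4.0.16 (R 4.3.3), with group alone in the design, TMM factors, the filter filterByExpr and Benjamini-Hochberg adjustment over 10674 genes at a threshold of 0.05. Levels are CPM with TMM scaling. An SE is the absolute log2 fold change divided by the square root of F, and intervals of log2 fold changes are 95% from it. Shares carry exact Clopper-Pearson intervals that cover counting error only. DESeq2 1.42.0, limma-voom (limma 3.58.1), other scalings and filters, the replicate block and leaving out each library were alternatives.

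Short unnamed genes have at most 450 bases and no symbol in the tables given, and 40926 identifiers had one. Names, lengths and sequences come from GENCODE v29 (GRCh38), a build other than that of the counts. By abundance in CPM, ENSG00000238881 ranked 4 and ENSG00000207985 ranked 5. All 8 genes are named, together with the next 5 by mean CPM, other called short unnamed genes, the 2 nearest in pattern, and a fixed list of small RNAs. The 3 genes that narrowly missed the threshold, the B cell and T cell gene and the genes of equal length were named after their values were seen. The members and lists were chosen with earlier results of these data known. Replicates of a group differed beyond counting noise (chi-square per degree of freedom 2.02 in R1810A and 3.77 in WT), so each library counts as 1 replicate.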

Additional observations from a re-analysis of the deposited data

How the results depend on the processing

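With 2 libraries a group, leaving out 1 leaves a lone sample that is assumed to vary like the other group. Across those fits, genes called higher in R1810A ranged from 2 to 113 and genes called lower from 0 to 40, against 37 and 1. Short unnamed genes called higher ranged from 1 to 13 (7 in the full fit) and called lower from 0 to 3 (0 in the full fit), and their median log2 fold change from -0.053 to 0.37 (0.06). The difference in the share of the abundant genes ranged from -0.28 to 0.75 percentage points (0.23), and that of the raised genes from 0.0444 to 0.0487 (0.0465).

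Genes called higher and lower numbered 78 and 7 with no filter and 73 and 4 with the replicate block. There were 24 higher with limma-voom, and 2 lower with DESeq2, 4 with robust edgeR and 5 with the deposited total reads. Short unnamed genes called higher numbered 3 with limma-voom and 4 with upper-quartile scaling. Their median was 0.27 with no filter, -0.062 with the deposited total reads and 1.37 with a length of at most 200 bases. Shares of the deposited total reads differed by -0.12 points (abundant) and 0.0231 (raised).

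Directions turned for 4 of the 5 abundant genes. With a library left out, ENSG00000199916 ranged from -0.14 to 0.12, ENSG00000252678 from -0.080 to 0.63 (the upper value past the threshold), ENSG00000252666 from -0.064 to 0.17 and ENSG00000207985 from -0.31 to 0.35. ENSG00000252666 was at -0.067 with the deposited total reads, and ENSG00000207985 at 0.023 with limma-voom and 0.018 with the replicate block. The cause was not tested. The raised genes kept a positive log2 fold change under every alternative run. The labels do not say what the replicate numbers pair, deviations of same-numbered libraries correlated at -0.040 over genes, and the replicate block called no abundant gene. Depth limits ENSG00000206653 most, with 6 and 7 reads in WT.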
